A study of Homo sapiens with 12 samples.

Results

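The genes described here are the zinc finger genes of human chromosome 19 that carry a ZNF symbol with a number, such as ZNF91 or ZNF526. The deposited table of 22379 protein-coding genes held 246 of them by the GENCODE annotation of GRCh38. A minimum of 10, taken on the average of the 6 untreated libraries, kept 208 of them among 13811 genes in all. The rule used no treated library, but its average included the untreated knockout libraries, so a low gene raised in a knockout could pass because of it. It was also set with earlier results of these data known. ZNF625 at 10.0, ZNF709 at 10.4 and ZNF556 at 11.1 lay just inside the minimum, and ZNF682 at 9.15, ZNF497 at 8.64 and ZNF878 at 7.19 lay just outside. Of the 38 genes that were left out, 3 were listed at 0 in all 12 libraries and 35 had a value above 0 in at least 1 library.

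Values came from 12 poly(A) RNA libraries of U2OS, an established osteosarcoma cell line. Every group had been transiently transfected with a px330-puro plasmid that encodes Cas9 and 1 guide RNA, which was nontargeting (NONT) or aimed at the nuclear pore gene NUP93 (NUP93-KO) or at EXOSC5, which encodes a subunit of the RNA exosome (EXOSC5-KO), and had been selected with puromycin. The knockouts are pools of cells and not clones, so unedited cells can remain. Each genotype was sampled untreated and after 8 h of 1 μM triptolide, which inhibits the XPB helicase of TFIIH and thereby initiation by RNA polymerase II, with 2 replicates per group. A value is an abundance scaled to RNA spikes that were added per cell, so it follows mRNA per cell, is not divided by transcript length, and cannot tell fewer cells with a transcript from less of it in each cell. Nothing in the labels says whether replicates were separate cultures, so p-values measure only the spread between these libraries.

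Zinc finger genes of this kind encode DNA-binding proteins built from tandem C2H2 fingers, each of which holds a zinc ion and reads a few bases of DNA. In many of them the fingers follow a KRAB box, a short domain that binds the corepressor TRIM28. TRIM28 in turn recruits the histone methyltransferase SETDB1, heterochromatin proteins and the NuRD complex, and most well-studied KRAB zinc finger proteins silence transposable elements in this way. Chromosome 19 carries many of these genes in clusters that arose by tandem duplication. Their mRNAs are known from other work as short-lived.

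The 208 genes had the features of that family. A KRAB pattern was found in the predicted protein of 167 of them, the number of canonical C2H2 fingers ran from 1 in ZNF428 to 31 in ZNF91 with a median of 12, and 116 lay on the plus strand. Their coding sequences were low in GC, with a median of 42.6% against 52.2% for all tested genes, and their transcripts had a median of 4 exons against 9. The median transcript was 4030 bases long, against 3448 for all tested genes, and its 3′ UTR held a median of 4 copies of ATTTA, the core of AU-rich elements, against 2.

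These transcripts were scarce. Divided by transcript length, the untreated NONT level had a median of 16.6 per kb among the 208 genes and of 103 per kb among the 12995 tested genes with a known length. The 5 highest members per kb were ZNF428 (455), ZNF146 (438), ZNF404 (297), ZNF358 (295) and ZNF787 (277). Without division by length, the mean over untreated libraries ranged from 10.0 to 1413 with a median of 66.2, against 345 for all tested genes, and 200 of the 208 lay below the median of tested genes. Library depth was about 8.555 to 11.92 M reads, where M denotes 10 to the power of 6, so the median member was covered by about 42.3 to 54.0 reads in an untreated library and by about 7.8 to 13.7 in a treated one. At most 2 of the genes were at 0 in any untreated library, and 6 to 18 were at 0 in the treated ones. The replicate SD of their log2 values, as a median per group, was 0.24 to 0.46, whereas that of all tested genes was 0.14 to 0.38. ZNF546, ZNF780A and ZNF780B each shared every value with a second, unannotated gene ID, and close paralogs in these clusters are uncertain because kallisto divides reads between near-identical sequences.

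Marker genes were read to check the labelled line. The mesenchymal genes VIM, FN1, SPARC, CDH2, CDH11 and RUNX2 had untreated values of at least 218, COL1A1 of at least 23580, while COL1A2 stayed between 10.2 and 42.1. Of the late osteoblast markers, ALPL lay between 107 and 246, IBSP and SP7 were at 0 and BGLAP was at most 5.68. EPCAM lay between 16.8 and 47.6, CDH1 between 32.2 and 69.7, PTPRC was at most 4.57 and PECAM1 at most 9.99. The targeted genes were lower in the untreated replicates of their own knockout without passing the threshold. NUP93 was 1395 and 1432 against 1753 and 2489 in NONT (limma adjusted p = 0.926), and EXOSC5 was 216 and 148 against 299 and 481 (limma adjusted p = 0.151).

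The promoters of the genes are shown because they are what a block of initiation acts on, and because short motifs recur in many of them. RefSeq promoters on GRCh38.p14, from 250 bases before to 50 bases after the start, were matched by symbol for 186 of the 208 genes. The ETS letters CCGGAAG occurred on either strand in 83 of them (44.6%), compared with 19.2% of the 10497 promoters matched to tested genes, 10.7% of all 27305 promoters in the table and 36.6% of the 194 promoters of numbered ZNF genes on other chromosomes. CCAAT was present in 96 (51.6%), against 36.3% of tested promoters, 35.7% of all promoters and 42.8% of those of numbered ZNF genes elsewhere. The GC box GGGCGG was present in 124 (66.7%), against 70.0%, 44.6% and 62.4% in the same order. TATAAA was present in 4 (2.15%), against 5.57% of tested promoters and 4.12% of those of numbered ZNF genes elsewhere. A match of letters is a description and does not show that a factor binds.

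The following 5 promoters, 300 bases each and written 5′ to 3′ on the strand of the gene, belong to ZNF526 (chr19:42220062-42220361, plus strand) and ZNF787 (chr19:56121246-56121545, minus strand), whose responses differed between genotypes, to ZNF175 (chr19:51571033-51571332, plus strand) and ZNF304 (chr19:57351021-57351320, plus strand), which were among the deepest losses above an untreated mean of 50, and to ZNF544 (chr19:58228664-58228963, plus strand), the shallowest above that level. Capitals mark the motifs in either orientation. In ZNF526 the second GC box overlaps a CCAAT box, and in ZNF787 the first ETS match is read on both strands of 1 palindrome.
ZNF526: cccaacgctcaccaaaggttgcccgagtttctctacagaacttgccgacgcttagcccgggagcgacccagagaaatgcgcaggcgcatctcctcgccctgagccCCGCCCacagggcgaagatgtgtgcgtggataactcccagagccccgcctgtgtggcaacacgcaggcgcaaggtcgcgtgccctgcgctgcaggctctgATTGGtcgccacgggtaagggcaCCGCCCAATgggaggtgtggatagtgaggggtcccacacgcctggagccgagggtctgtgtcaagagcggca
ZNF787: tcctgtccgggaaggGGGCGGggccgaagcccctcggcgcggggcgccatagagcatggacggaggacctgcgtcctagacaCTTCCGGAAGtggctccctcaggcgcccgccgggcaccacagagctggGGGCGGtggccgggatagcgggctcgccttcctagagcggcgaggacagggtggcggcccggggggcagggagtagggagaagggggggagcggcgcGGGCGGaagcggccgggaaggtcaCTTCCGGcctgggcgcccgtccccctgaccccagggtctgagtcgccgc
ZNF175: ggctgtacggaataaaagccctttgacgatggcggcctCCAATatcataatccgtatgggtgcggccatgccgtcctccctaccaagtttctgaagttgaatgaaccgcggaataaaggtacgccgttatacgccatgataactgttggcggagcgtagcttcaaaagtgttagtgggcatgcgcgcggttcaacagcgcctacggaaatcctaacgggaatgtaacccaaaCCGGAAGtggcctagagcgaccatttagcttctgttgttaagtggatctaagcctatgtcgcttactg
ZNF304: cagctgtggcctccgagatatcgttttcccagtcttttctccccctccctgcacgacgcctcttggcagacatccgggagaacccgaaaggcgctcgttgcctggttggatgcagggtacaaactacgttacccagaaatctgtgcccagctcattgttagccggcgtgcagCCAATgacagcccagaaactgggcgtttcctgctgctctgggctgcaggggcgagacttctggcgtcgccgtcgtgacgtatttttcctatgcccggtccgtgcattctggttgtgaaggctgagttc
ZNF544: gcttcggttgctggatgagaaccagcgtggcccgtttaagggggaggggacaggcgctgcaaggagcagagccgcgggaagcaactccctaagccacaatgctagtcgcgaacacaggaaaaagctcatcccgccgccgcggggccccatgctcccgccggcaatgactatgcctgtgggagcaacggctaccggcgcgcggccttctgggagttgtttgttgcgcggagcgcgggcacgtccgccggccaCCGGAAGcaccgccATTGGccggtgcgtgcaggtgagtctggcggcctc
ZNF526 held 2 GC boxes and 2 CCAAT boxes with no ETS letters, and ZNF787 held 3 GC boxes and 3 ETS matches. ZNF175 and ZNF544, from opposite ends of the range of responses, both held 1 ETS match and 1 CCAAT box. Over the matched members, the 83 genes with the ETS letters had median triptolide responses of −3.14, −2.41 and −2.24 (log2 fold changes of NONT, NUP93-KO, EXOSC5-KO), and the 103 without them had −3.38, −2.88 and −2.83.

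The first comparison asked how far these mRNAs fell when initiation was blocked. Summed over the 208 genes, the abundance in NONT was 17922 and 26163 in the untreated replicates and 2841 and 2196 after triptolide, so 11.4% was left, and setting each treated library against each untreated one gave 8.39% to 15.9%. Over all genes 39.0% of the sum was left (pairings 29.8% to 52.5%). In NUP93-KO the members' sum was 19034 and 20931 without drug and 4068 and 4304 with it, which left 20.9% (19.4% to 22.6%) against 67.4% of all genes. In EXOSC5-KO it was 26238 and 24380 without drug and 5312 and 5537 with it, which left 21.4% (20.2% to 22.7%) against 57.7% of all genes. No treated library overlapped an untreated one in any genotype. The exact two-sided permutation p was 0.333 for each genotype, the smallest that 2 against 2 libraries allow. As a share of all signal, the members took 0.158% to 0.159% of the untreated NONT and NUP93-KO libraries and 0.182% of the untreated EXOSC5-KO libraries. After triptolide the share was 0.045% to 0.049% in NONT and NUP93-KO and 0.066% to 0.069% in EXOSC5-KO.

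Gene by gene, 190 of the 208 members fell in NONT at a limma adjusted p under 0.05 and none rose, in a comparison in which 90.0% of all tested genes fell, about the same share. In NUP93-KO 169 members fell and none rose, against 55.1% of all tested genes that fell. In EXOSC5-KO 176 fell, against 64.3% of all tested genes, and 1 rose, ZNF526, in a direction in which 0.0796% of all genes were called. The size of the decrease set the members further from other genes than the calls did. In the order NONT, NUP93-KO, EXOSC5-KO, their median log2 fold changes were −3.29, −2.77 and −2.67, and the medians of all tested genes were −1.62, −0.92 and −1.08. The median member kept 8.15%, 13.5% and 15.8% of its untreated mean, and the median tested gene kept 31.4%, 52.5% and 47.2%. Below the median gene lay 178, 185 and 186 of the 208.

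**Figure D1:**
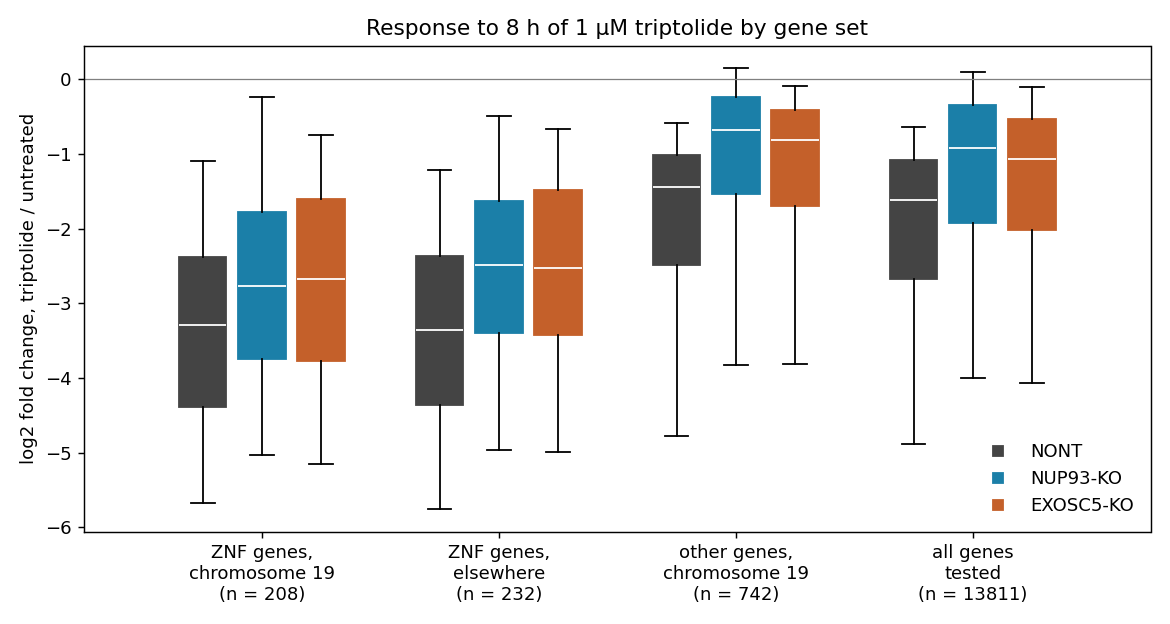
Log2 fold changes of triptolide over untreated, fitted by limma, for the 208 numbered ZNF genes of chromosome 19, 232 numbered ZNF genes elsewhere, 742 other genes of chromosome 19 and all 13811 genes tested. Boxes span the quartiles with the median in white, whiskers the 5th to 95th percentiles, and colours the genotypes. Both ZNF sets sit lower than the other 2 sets in all 3 genotypes.

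The same values were taken for other sets of genes. Numbered ZNF genes on other chromosomes had medians of −3.36, −2.48 and −2.52 in the same order of genotypes, while the other genes of chromosome 19 had −1.44, −0.68 and −0.82. Within bands of untreated mean, members lay lower than tested genes as a whole in each band. The 64 members with an untreated mean of at least 100 had medians of −4.05, −3.16 and −3.00, while all 10381 tested genes in that band had −1.61, −0.89 and −1.06. The 40 members between 10 and 30 had medians of −2.82, −2.36 and −2.44, and the 1366 tested genes of that band −1.55, −0.94 and −1.03. In between, the 104 members from 30 to 100 had −3.22, −2.40 and −2.36, and the 2064 tested genes of that band −1.75, −1.12 and −1.19. Fold changes are on the log2(value + 1) scale, which understates the change of low genes.

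The decrease per gene depended on the spike-in scale, as that of all genes did. Rescaling each library by the median of ratios over genes moved the median of all tested genes to −0.01, −0.03 and −0.01 and that of the members to −1.90, −1.95 and −1.65, so the members stayed below the median gene by −1.89, −1.92 and −1.64. On that scale 127, 119 and 103 members fell, against 30.3%, 29.7% and 28.7% of all tested genes, and 3, 3 and 5 rose, against 27.2%, 26.7% and 26.1%.

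Single members differed widely in how much they lost. A call as lower was made in all 3 genotypes for 153 members, in 2 for 29, in 1 for 18 and in none for 8. The last were ZNF582, ZNF20, ZNF556, ZNF738, ZNF69, ZNF726, ZNF345 and ZNF625, named after their values were seen, with untreated means of 10.0 to 29.7. Responses of single genes in different genotypes, which come from separate libraries, went together with Pearson's r of 0.771 for NONT and NUP93-KO, 0.667 for NONT and EXOSC5-KO and 0.707 for the knockouts (Spearman's rho 0.78, 0.719 and 0.747). These are correlations across genes, which are not independent replicates and share each library's scale.

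The 6 deepest decreases among members with an untreated mean of at least 50 were those of ZNF574, ZNF175, ZNF304, ZNF613, ZNF700 and ZNF792, ranked by the mean of the 3 log2 fold changes. ZNF574 lies at chr19:42068477-42081552 on the plus strand and encodes 18 fingers without the KRAB pattern. In NONT it was 421 and 652 untreated and 6.14 and 1.78 treated, which left 0.738% on about 14 reads (95% exact Poisson interval 0.389% to 1.19%, counting error only). It went from 468 and 483 to 4.76 and 8.13 in NUP93-KO cells and from 503 and 440 to 14.5 and 8.96 with EXOSC5-KO. All treated values of ZNF574 thus lay far under all untreated ones, with log2 fold changes of −6.88, −6.04 and −5.25.

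ZNF175, also known as OTK18 and studied as a repressor of a viral promoter, was 107 and 240 in untreated NONT and 0.375 and 0.913 after triptolide. For NUP93-KO its values were 159 and 102 against 0.544 and 6.16, and EXOSC5-KO had 251 and 162 against 3.71 and 3.93. The treated replicates of NUP93-KO were far apart here, at about 0.6 and 6.2 reads. ZNF304, a KRAB protein, went from 183 and 227 to 5.05 and 3.52 in NONT. The EXOSC5-KO values were 196 and 158 untreated and 2.99 and 3.94 treated. In NUP93-KO it went from 179 and 182 to 0 and 4.77. ZNF613, ZNF700 and ZNF792 behaved alike, with 0.243% to 2.28% left in each genotype, and each of them had treated values of at most 4.06 in all 6 treated libraries. For these 6 genes a treated value rests on about 15.5 reads or fewer, so their rank among each other is not resolved.

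At the other end stood ZNF544, ZNF358, ZNF428, ZNF480, ZNF83 and ZNF528. ZNF544 lies at chr19:58228594-58277495 on the plus strand and encodes 12 fingers and a KRAB box. It was 124 and 172 untreated and 95.2 and 68.9 treated in NONT, where it fell (log2 fold change −0.84 ± 0.30 SE, limma adjusted p = 0.0161). NUP93-KO had 182 and 210 untreated and 148 and 200 treated, and EXOSC5-KO had 154 and 226 untreated and 145 and 134 treated. The groups overlapped in NUP93-KO and neither knockout passed the threshold (log2 fold changes −0.18 and −0.42). ZNF358 was 482 and 677 untreated and 376 and 277 treated in NONT. NUP93-KO had 679 and 569 against 527 and 510, and EXOSC5-KO had 759 and 727 against 522 and 543. Treated values were lower in every pairing for ZNF358, with 56.3%, 83.1% and 71.7% left.

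ZNF428, which has a single canonical finger and the highest level per kb of all members, was 449 and 608 untreated in NONT and 294 and 135 treated. NUP93-KO had 519 and 510 against 434 and 478, and EXOSC5-KO 706 and 603 against 494 and 492. This left 40.6%, 88.7% and 75.3%, and only the decrease in NONT passed the threshold. ZNF480 kept 36.3%, 63.7% and 78.4%, ZNF83 kept 37.1%, 65.3% and 66.9%, and ZNF528 kept 39.0%, 60.2% and 55.6%. All 6 genes fell in NONT, with limma adjusted p of 0.000287 to 0.0161, and none passed the threshold in either knockout, where adjusted p ranged from 0.0509 to 0.638. ZNF480, ZNF83 and ZNF528 lie within the same run of neighbours on the long arm, and ZNF613 and ZNF175 of the deepest group lie in it as well. With median of ratios scaling all 6 genes had log2 fold changes above 0 in all 3 genotypes, so their direction holds on the spike-in scale and not on that one.

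**Figure D2:**
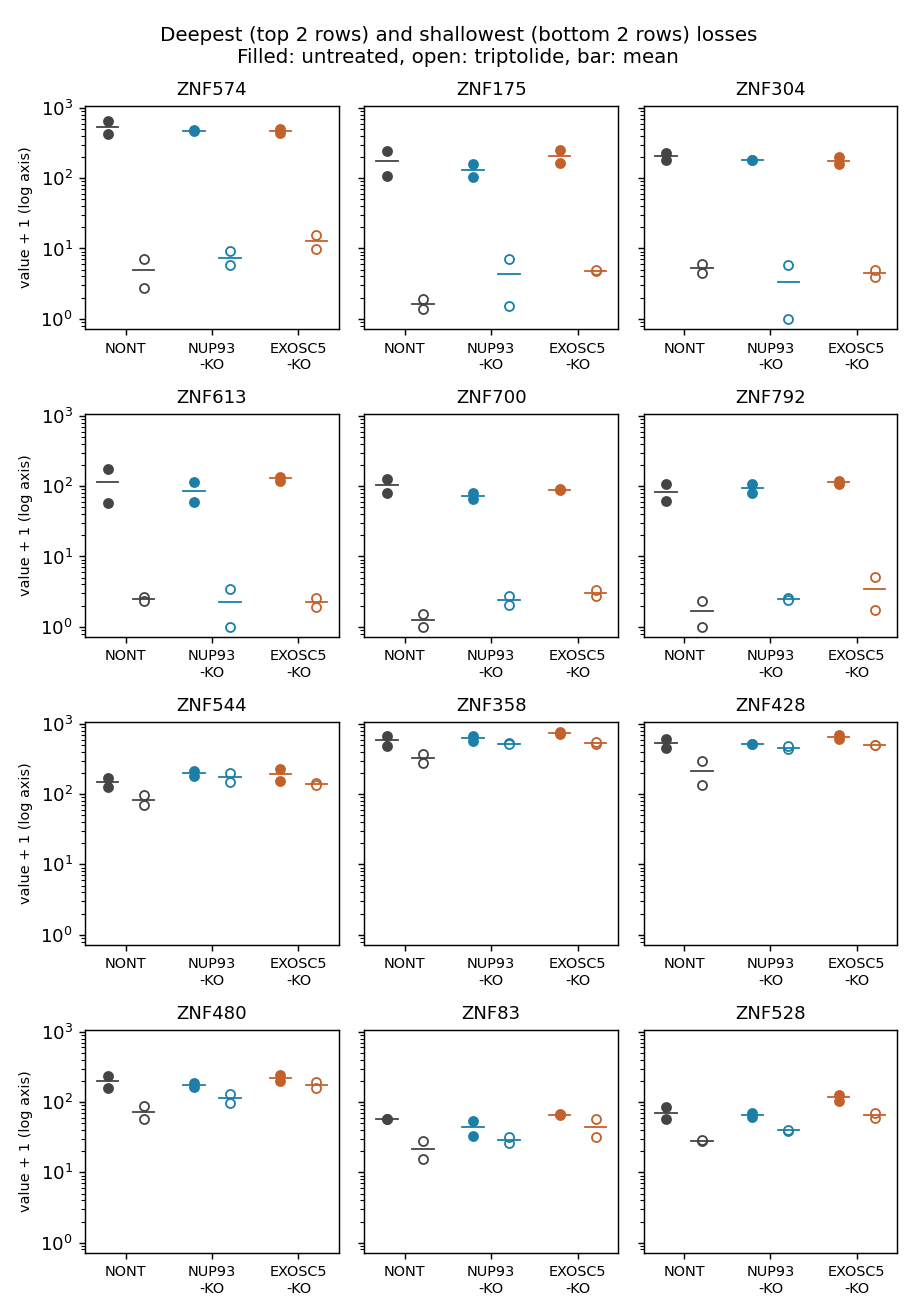
Values of the 6 members with the deepest (top rows) and the 6 with the shallowest decrease (bottom rows), as value + 1 on a log axis, for 2 replicates per group and their mean as a bar. Filled points are untreated and open points triptolide libraries. In the deepest group every treated value is under 15, whereas the shallowest group stays at 14.8 or higher.

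Position along the chromosome gave a further view. Consecutive numbered ZNF genes of the annotation with starts under 500 kb apart were joined into runs. Members fell in 18 of these runs, of which 10 held at least 5 members and 196 members in all. The largest was the run from ZNF264 to ZNF446 near the end of the long arm (chr19:57191500-58481230, 38 genes), with medians of −3.82, −3.00 and −3.46 in the same order of genotypes. The run from ZNF101 to ZNF254 (chr19:19668796-24129968, 16 genes) had the smallest median in each genotype among these 10 runs, at −2.54, −2.17 and −1.97, and also the lowest median untreated mean, 29.5. Next to it in size of response stood ZNF565 to ZNF573 (25 genes), with −2.94, −2.32 and −2.09. The 36 genes from ZNF175 to ZNF331 had −3.15, −2.50 and −2.24, and the 21 genes from ZNF575 to ZNF180 had −3.40, −2.65 and −2.48. The 22 genes from ZNF653 to ZNF791 had −3.21, −2.86 and −2.98, the 12 from ZNF414 to ZNF846 −3.62, −2.53 and −3.05, and the 16 from ZNF628 to ZNF835, whose coding GC was 67.7% at the median, −3.68, −3.33 and −2.64. Within each of the larger runs single genes spread over several log2 units, which is wider than the medians differ.

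**Figure D3:**
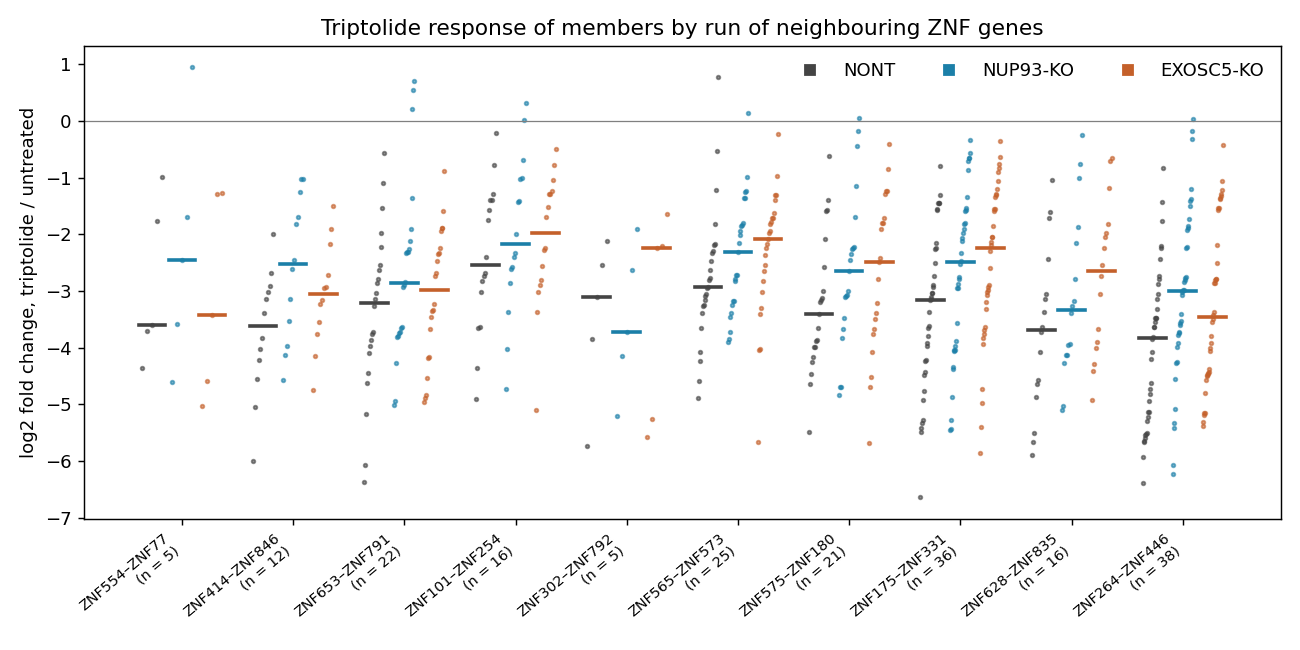
Triptolide response (log2 fold change) of each member in the 10 runs with at least 5 members, in order along chromosome 19, with the median of each genotype as a bar and n under each name. The medians lie between −3.82 and −1.97 in all 10 runs, and points within the larger runs span from near 0 to below −4.

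Structure of the protein and transcript went with the response only weakly. Members without the KRAB pattern (41 genes) had medians of −3.65, −3.08 and −2.93, and those with it −3.16, −2.64 and −2.54. The pattern is a strict match of residues, so a member without it can still hold a KRAB box. The 19 genes with 1 to 6 fingers had −3.39, −2.75 and −2.79, and the 87 with 7 to 12 had −3.48, −2.78 and −2.81. The 84 with 13 to 18 had −3.31, −2.83 and −2.545, and the 18 genes with 19 or more had −2.88, −2.23 and −2.10. Spearman's rho of the log2 fold change with the number of fingers was 0.0511, −0.0156 and 0.021. Across the 208 genes, Spearman's rho of the log2 fold change with coding GC was −0.316, −0.216 and −0.261, that with the untreated mean was −0.364, −0.283 and −0.17, and that with the count of ATTTA in the 3′ UTR was 0.111, 0.0438 and 0.0625. Genes are not replicates and GC, level and run are shared among neighbours, so these are descriptions without a test.

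Of 16 members of the family with a role known from the literature, 15 were among the 208 and ZNF382 was not. Their medians were −3.97, −2.61 and −2.48, and 12, 13 and 12 of the 15 fell, beside 90.0%, 55.1% and 64.3% of all tested genes. ZNF274, which marks the 3′ ends of zinc finger genes for heterochromatin, was 141 and 178 untreated and 1.61 and 3.48 treated in NONT. With NUP93-KO it was 167 and 219 against 10.5 and 17.2, with EXOSC5-KO 304 and 249 against 18.2 and 16.5, and it fell in all 3. ZNF146, a protein made almost only of fingers, was the member with the largest value, 1087 and 1846 in untreated NONT, and kept 5.10%, 10.4% and 6.05%. ZNF417 and ZNF587, a pair of paralogs that silence HERV-K proviruses, did not go together. In NONT ZNF417 was 108 and 89.5 untreated and 0.386 and 0 treated, while ZNF587 was 59.1 and 68.0 against 14.9 and 10.6. In NUP93-KO ZNF587 did not pass the threshold, at 42.7 and 25.3 against 30.9 and 36.9. ZNF417 and ZNF587 are near copies, and how the reads were divided between them is uncertain.

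ZNF91 and ZNF93 repress SVA and L1 retrotransposons. ZNF93 was 36.5 and 39.5 untreated and 3.80 and 1.00 treated in NONT and fell in all 3 genotypes (log2 fold changes −3.65, −2.61 and −2.55). ZNF91 was 26.1 and 48.6 against 16.4 and 10.0 in NONT and passed the threshold only in NUP93-KO (−1.40, −2 and −1.51, limma adjusted p = 0.0679, 0.0226 and 0.0677). ZNF350, a partner of BRCA1, had untreated NONT replicates far apart, at 127 and 32.9, against 8.63 and 0.851 treated. It fell in NONT and NUP93-KO (−3.97 and −2.32) and did not pass in EXOSC5-KO (−1.33, limma adjusted p = 0.194). ZNF420, an inhibitor of p53, and ZNF675, which binds TRAF6, fell in all 3 genotypes (−4.09, −3.46 and −1.81, and −2.73, −1.42 and −1.29). ZNF331, an imprinted gene, fell in NONT and NUP93-KO (−2.25 and −1.82) and had −1.07 in EXOSC5-KO (limma adjusted p = 0.0684). ZNF568, which controls a placental transcript of Igf2 in mice, was 75.7 and 79.9 against 34.6 and 31.1 in NONT (−1.22, limma adjusted p = 0.0577) and fell in both knockouts (−1.85 and −1.94, limma adjusted p = 0.0125 and 0.00822). ZNF224, a repressor of the aldolase A gene, was at 3.34 and 13.7 in untreated NONT and 1.53 and 9.74 in treated NONT (−0.62, limma adjusted p = 0.482). In NUP93-KO its log2 fold change was 0.06, and with EXOSC5-KO it fell from 44.1 and 14.9 to 3.95 and 3.63 (−2.48, limma adjusted p = 0.0163).

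The partners through which KRAB proteins act kept more of their mRNA at the median. Of 19 listed genes of this machinery, all tested, 19 fell in NONT, 11 with NUP93-KO and 14 with EXOSC5-KO (90.0%, 55.1% and 64.3% of all tested genes), none rose, and their medians of −1.56, −0.74 and −1.02 stood beside −1.62, −0.92 and −1.08 for all tested genes. TRIM28 was 2919 and 4900 untreated and 1762 and 1661 treated in NONT, which left 43.8%, and 66.6% and 52.0% were left in the knockouts. DNMT1 kept 52.5%, 99.0% and 79.3%. The lowest shares were those of ATF7IP, the cofactor that stabilises SETDB1 (7.79%, 13.8% and 6.31% left), SMARCAD1 (9.54%, 22.4% and 18.8%) and DAXX (13.1%, 17.3% and 15.6%), and the treated NUP93-KO replicates of ATF7IP were far apart, at 129 and 20.2. SETDB1 itself kept 18.6% in NONT, where it fell, and 59.6% and 62.4% in the knockouts, where it did not pass the threshold. Its NUP93-KO groups overlapped, at 32.5 and 139 untreated and 62.7 and 39.8 treated, so the share left there is uncertain. In EXOSC5-KO SETDB1 was 60.1 and 53.2 untreated and 23.5 and 47.2 treated. Without drug, none of the 19 was called in either knockout.

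The next comparison asked whether knockout alone changed the members. In untreated NUP93-KO none of the 208 was called against NONT by limma, in a comparison that called 0.0217% of all tested genes in either direction. At an unadjusted p under 0.05, 2 members were higher (1.75% of all genes) and 3 lower (2.45%). Their median log2 difference was −0.12 against −0.09 for all genes. Both NUP93-KO replicates exceeded both NONT replicates for 18 members (8.65%), against 7.93% of all tested genes, and both lay under both for 37 (17.8%), against 12.8%. Where NONT or NUP93-KO averaged 50 or more, the largest difference without overlap was that of ZNF114, a KRAB gene with 3 fingers, at 108 and 196 in NONT and 352 and 361 in NUP93-KO (log2 fold change 1.29 ± 0.43 SE, limma adjusted p = 0.786). ZNF114 was 313 and 258 in untreated EXOSC5-KO, so both knockouts lay above both NONT values, which they share as controls. ZNF136, at 72.8 and 143 in NONT and 33.8 and 51.3 in NUP93-KO, and ZNF525, at 87.7 and 122 and 72.6 and 31.3, lay lower without passing (limma adjusted p = 1 for both). Members under that level had larger differences without overlap, none of them called, such as ZNF20 (−2.40) and ZNF793 (1.67), which were picked after their values were seen.

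In untreated EXOSC5-KO the members lay mostly above NONT, by a small amount. The median log2 difference was 0.24 against 0.07 for all tested genes, and 162 of the 208 (77.9%) were above 0 compared with 59.5% of all genes. Both EXOSC5-KO replicates exceeded both NONT replicates for 68 members (32.7%), against 19.2% of all tested genes, and both were under both NONT replicates for 8 (3.85%), against 9.2%. Numbered ZNF genes elsewhere had 67 of 232 (28.9%) above. The minimum averaged the EXOSC5-KO libraries in, so low members could pass it through high values there. Of the 40 members with an untreated mean between 10 and 30, 19 lay above in this way, with a median log2 difference of 0.66. It was 34 of the 104 from 30 to 100 (median 0.23) and 15 of the 64 at 100 or more (median 0.18). All tested genes were not split by level for this comparison. Without the second untreated NONT replicate 2 members were called instead of 1. None of the members was called higher, in a direction that called 0.485% of all genes, and 14 were higher at an unadjusted p under 0.05 (6.03% of all genes). The members' excess over the median gene was 0.16 on the spike-in scale. Median of ratios, same total and mitochondrial scaling gave 0.164, 0.164 and 0.166. Each divides a whole library by 1 factor and shifts all its genes nearly alike, so these scalings cannot test the excess. The count above 0 depended on the scale, at 138 with median of ratios, 156 with equal totals and 84 with mitochondrial scaling, where the members' own median was −0.14. The run from ZNF101 to ZNF254 had the highest median of the 10 runs, 0.71, and also the lowest median untreated mean, 29.5. Whether this goes with position or with level was not tested. Where NONT or EXOSC5-KO averaged 50 or more, ZNF577 was the largest uncalled difference without overlap, at 11.9 and 77.1 in NONT and 130 and 141 in EXOSC5-KO (log2 fold change 2.10 ± 0.68 SE, limma adjusted p = 0.307), with NONT replicates that differed several-fold. ZNF846 was 15.5 and 22.0 in NONT and 53.5 and 56.4 in EXOSC5-KO (1.52 ± 0.51 SE, limma adjusted p = 0.338).

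**Figure D4:**
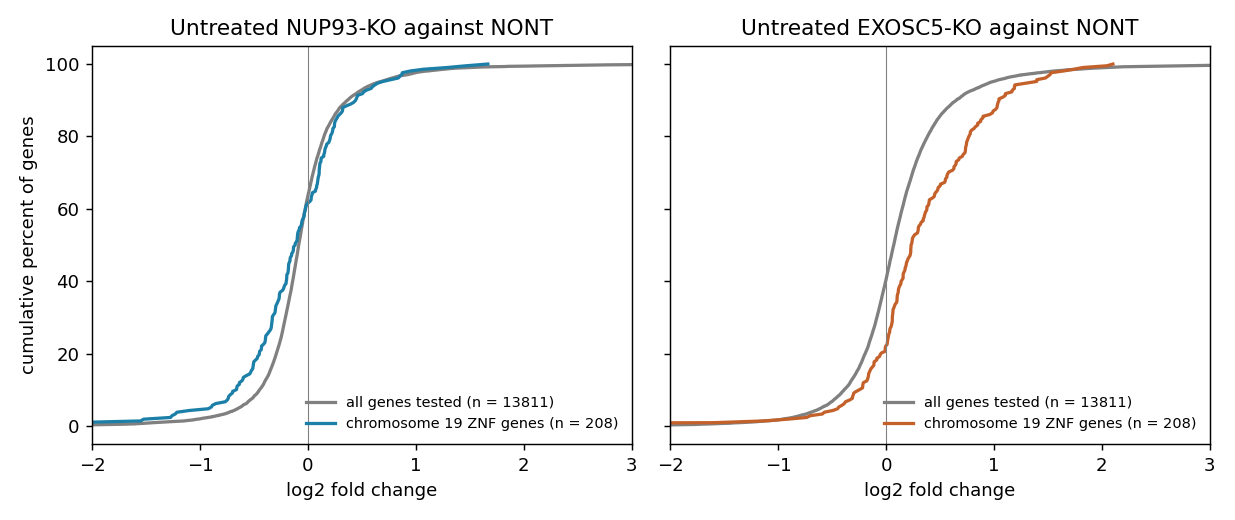
Cumulative percent of genes against the log2 fold change of untreated NUP93-KO (left) and untreated EXOSC5-KO (right) over untreated NONT, for the 208 members in colour and all 13811 tested genes in grey. The member curve runs close to the grey one on the left and to its right on the right, with medians of 0.24 and 0.07. The axis ends at −2 and leaves out ZNF556 (−2.20) and ZNF20 (−2.40) on the left and ZNF526 (−7.69) on the right.

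ZNF526 was the exception, and the only member called in an untreated comparison. It encodes 13 fingers without the KRAB pattern and lies at chr19:42220292-42228201 on the plus strand, where its 3′ end overlaps that of GSK3A on the minus strand. It was 286 and 330 in untreated NONT, 263 and 123 in untreated NUP93-KO, but in untreated EXOSC5-KO it was 0 and 1.22. The log2 fold change against NONT was −7.69 ± 0.60 (SE, limma adjusted p = 3.76e-06), in a direction that called 0.0362% of all tested genes, and 1 member was lower at an unadjusted p under 0.05 (2.46% of all genes). About 1 read was counted over both EXOSC5-KO libraries, which is 0.198% of the NONT level with a 95% exact Poisson interval of 0.00595% to 1.31%, counting error only. After triptolide the order turned, with 3.56 and 6.20 for NONT, 10.3 and 5.06 for NUP93-KO and 8.20 and 13.2 for EXOSC5-KO. ZNF526 therefore fell in NONT and NUP93-KO (−5.75 and −4.45) and rose in EXOSC5-KO (2.94 ± 0.60 SE, limma adjusted p = 0.000468), where about 25 reads stood against 1. The treated NUP93-KO values overlapped both other genotypes, and the untreated EXOSC5-KO values lay under every other value of the gene.

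Genes around ZNF526 were read as well. EXOSC5, the gene targeted by the guide, lies 0.834 Mb away on the same chromosome. The 29 tested genes within 1 Mb of ZNF526 had log2 differences between untreated EXOSC5-KO and NONT of −1.10 to 1.00 with a median of 0.03, and none was called by limma. GSK3A, the overlapping gene, had means of 1188 in NONT and 1063 in EXOSC5-KO, and the neighbouring member ZNF574 differed by −0.15. Whether the gene itself was altered in these cells was not tested.

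The last comparison asked whether the knockouts changed the response to triptolide. In NUP93-KO the response of the members differed from that in NONT by a median of 0.69 on the log2 scale, that is, toward a smaller decrease, and by 0.74 for all tested genes. None of the 208 differences was called, where limma called 0.775% of all tested genes in either direction. At an unadjusted p under 0.05, 32 members lay above 0 (15.4%, against 41.3% of all genes) and 3 below (0.282% of all genes). The count of 0 was not stable. It was 5 with a minimum of 50, and it rose when the first untreated or the first treated NONT replicate was left out. Under median of ratios, same total and mitochondrial scaling it stayed at 0. Where at least 1 group averaged 50 or more, ZNF432 was the largest without overlap, at 51.2 and 144 untreated and 5.14 and 0.652 treated in NONT and 58.2 and 84.4 against 18.9 and 19.9 in NUP93-KO (difference 2.97 ± 0.89 SE, limma adjusted p = 0.0644). ZNF211 was similar, with 0.646% left in NONT and 11.1% in NUP93-KO (2.69 ± 0.79 SE, limma adjusted p = 0.062). ZNF430 went the other way, at 55.4 and 48.6 untreated and 14.8 and 28.8 treated in NONT and 41.6 and 55.6 against 1.00 and 3.52 in NUP93-KO (−2.74 ± 1.01 SE, limma adjusted p = 0.0781). Under that level ZNF793, picked after its values were seen, had a larger difference, −3.49 ± 0.87 (SE, limma adjusted p = 0.0586).

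In EXOSC5-KO the members' response differed from NONT by a median of 0.67, against 0.57 for all tested genes, and 3 members were called above 0, where 0.319% of all tested genes were. The first was ZNF526, whose difference of 8.69 ± 0.85 (SE, limma adjusted p = 0.000209) goes with untreated EXOSC5-KO values near 0. ZNF473, also known as ZFP100, is a component of the U7 snRNP machinery that processes histone pre-mRNA and lies at chr19:50025714-50053414 on the plus strand. It was 276 and 261 untreated and 1.5 and 0.727 treated in NONT, which left 0.415% on about 4 reads (95% exact Poisson interval 0.111% to 1.04%). NUP93-KO had 286 and 233 against 10.2 and 5.80, and EXOSC5-KO had 269 and 314 against 21.4 and 17.7, which left 6.71%. The untreated levels of ZNF473 overlapped between genotypes while all treated EXOSC5-KO values lay above all treated NONT values (difference 3.19 ± 0.58 SE, limma adjusted p = 0.0372).

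ZNF787 has 7 fingers without the KRAB pattern, lies at chr19:56087366-56121295 on the minus strand and is among the highest members per kb. It was 475 and 600 untreated and 25.2 and 11.8 treated in NONT. NUP93-KO had 480 and 461 against 45.3 and 42.7, and EXOSC5-KO had 634 and 444 against 95.7 and 86.0. The treated values thus stood in 3 separate steps, with 3.45%, 9.35% and 16.9% left, over untreated values that overlapped (difference of EXOSC5-KO from NONT 2.33 ± 0.46 SE, limma adjusted p = 0.048). The calls of ZNF473 and ZNF787 were near the threshold and passed it in 6 and 5 of 20 alternatives, with adjusted p of 0.0101 to 0.213 and 0.00329 to 0.291. Without the second untreated NONT replicate none of the 3 was called, and the adjusted p of ZNF526 was 0.0526. Without the first untreated NONT replicate 22 members were called and without the first treated one 9.

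**Figure D5:**
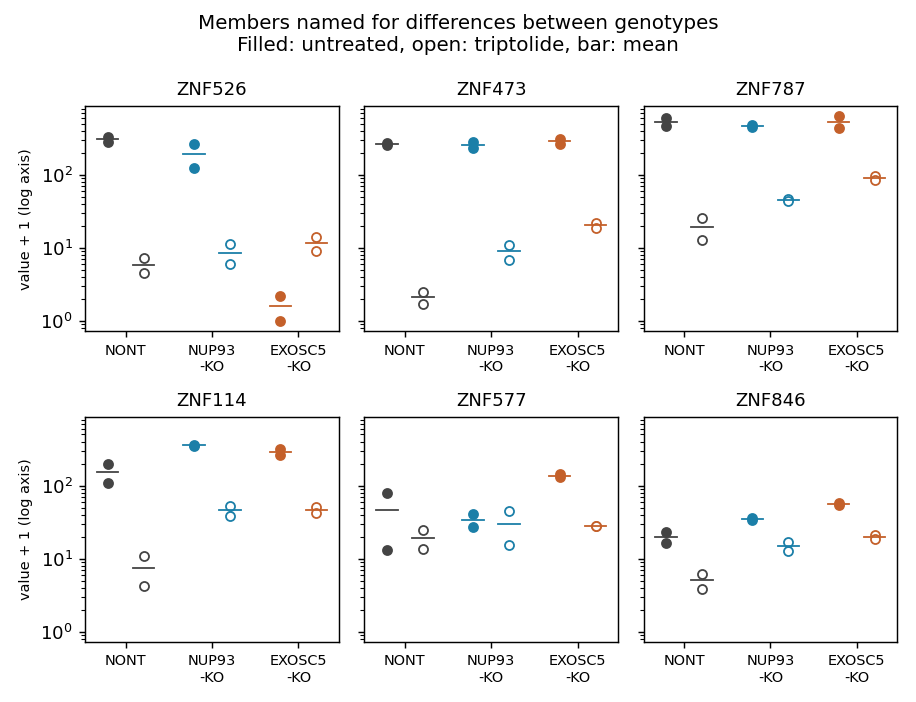
Values of 6 members named for differences between genotypes, as value + 1 on a log axis, with 2 replicates per group and their mean as a bar. Filled points are untreated and open points triptolide libraries. ZNF526 is near 0 in untreated EXOSC5-KO only, and ZNF473 and ZNF787 have higher treated values in EXOSC5-KO than in NONT over untreated values that overlap.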

How the data were processed

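The authors prepared directional poly(A) libraries with ERCC spike-in RNAs in proportion to cell number, quantified paired reads with kallisto 0.46.1 against Ensembl GRCh38 cDNA, summarised them by gene with tximport and divided by DESeq2 size factors estimated on 92 ERCC transcripts. What the authors deposited is thus a signal normalised to spikes, not read counts, and an error in cell number or spike volume moves a whole library. Low values were whole multiples of the worth of 1 read (within 0.02 reads) in too few cases to recover reads, so no count model was run and read numbers are approximate.

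Groups came from the sample labels. Values were analysed as log2(value + 1) for the 13811 genes with an untreated mean of at least 10, with limma 3.58.1 in R 4.3.3 (6 group means, 12 libraries, eBayes with trend, 7 two-sided contrasts, Benjamini-Hochberg adjustment over all tested genes, threshold 0.05). The script was tested on simulated data. Gene positions, transcripts and coding sequences were those of GENCODE release 44 on GRCh38, which matched 12995 of the tested genes. The KRAB pattern was D-V, any 3 residues, F, S or T, any 2 residues, E, W or L, and fingers were canonical C2H2 matches, both searched in translated coding sequence. Promoters came from RefSeq.

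Genes were named as the 6 deepest and 6 shallowest mean responses with an untreated mean of at least 50, the called genes of the other contrasts (filled up to 3 with the largest uncalled differences without overlap where at least 1 group averaged 50 or more), the 5 highest per kb and a fixed list with known roles. The members, lists and rules were chosen with earlier results of these data known. Alternatives were another pseudocount, filters, 3 other scalings, no trend, the replicate block and leaving out each library. Summaries were made in Python 3.11.15 (matplotlib 3.10.9, SciPy 1.17.1).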

Additional observations from a re-analysis of the deposited data

Results flagged for a closer look

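The 3 members whose triptolide response was called as different between EXOSC5-KO and NONT are singled out here, each by the test of the difference itself. For ZNF526 the difference in log2 fold change was 8.69, with a decrease in NONT (−5.75) and an increase in EXOSC5-KO (2.94). For ZNF473 it was 3.19, from −7.02 in NONT to −3.83 in EXOSC5-KO, and about 4 reads stood behind the treated NONT value. For ZNF787 it was 2.33, from −4.87 in NONT to −2.53 in EXOSC5-KO. In NUP93-KO the same genes had differences of 1.30, 2.13 and 1.48 from NONT, none of them called by limma (adjusted p = 0.237, 0.0586 and 0.0685), and both contrasts share the NONT libraries.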

How the results depend on the processing

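Each result was recomputed under 20 alternatives. For single named genes this gave 1844 values from 93 results, of which 1662 kept their direction and their side of the threshold, 103 kept the direction but no longer passed, 36 passed only under the alternative and 43 changed sign, 34 of these under median of ratios or same total scaling.

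Counts of members called under triptolide were 190, 169 and 177 for NONT, NUP93-KO and EXOSC5-KO. With an untreated minimum of 50, which leaves fewer genes to test, NONT had 126 and NUP93-KO 112. Under median of ratios scaling EXOSC5-KO had 108, and under same total scaling 117. Leaving out 1 library gave 172 to 195, 137 to 171 and 140 to 180. In untreated NUP93-KO the count was 0 throughout, and in untreated EXOSC5-KO it was 1 to 2. Differences in response called for NUP93-KO rose from 0 to 5 with the minimum of 50, and they ranged from 0 to 31 when 1 library was left out. For EXOSC5-KO, 3 fell to 1 with the pseudocount of 5, with no filter on low values, with no mean-variance trend and with median of ratios, same total and mitochondrial scaling alike, and it ranged from 0 to 22 when 1 library was left out. The cause was not tested.

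The members' median log2 fold change minus that of all tested genes stayed below 0 under every alternative. The 3 other scalings cannot test this difference, because 1 factor per library shifts members and other genes nearly alike. In NONT it was −1.67, and −1.08 with the pseudocount of 5, −1.98 with no filter, −2.02 with the minimum of 50, −1.89, −1.87 and −1.79 with median of ratios, same total and mitochondrial scaling, and −1.75 to −1.58 without 1 library. The value of −1.85 for NUP93-KO was −1.18 with the pseudocount of 5, −2.07 with no filter, −2.09 with the minimum of 50, −1.92 with median of ratios scaling and −1.87 to −1.75 without 1 library. For EXOSC5-KO −1.60 became −1.13, −1.83 and −1.81 under the first 3 of these, and −1.62 to −1.53 without 1 library.

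The sign changes concerned genes with small responses. Under median of ratios scaling, log2 fold changes for NONT, NUP93-KO and EXOSC5-KO were 0.80, 0.72 and 0.65 for ZNF544, 0.82, 0.64 and 0.60 for ZNF358, 0.26, 0.73 and 0.68 for ZNF428, 0.19, 0.24 and 0.73 for ZNF480, 0.15, 0.32 and 0.42 for ZNF83, and 0.31, 0.17 and 0.23 for ZNF528, while in NONT alone ZNF91 had 0.17, ZNF224 0.77 and ZNF568 0.40. Under same total scaling ZNF544 had 0.49, 0.38 and 0.37 and ZNF358 0.51, 0.31 and 0.31. ZNF428 then had 0.39 in both knockouts, ZNF480 0.44 and ZNF83 0.14 in EXOSC5-KO, and ZNF528 0.0079, ZNF224 0.51 and ZNF568 0.093 in NONT. Under mitochondrial scaling the NUP93-KO responses of ZNF587 and ZNF224 were −0.26 and −0.21. Leaving out 1 library moved the NUP93-KO response of ZNF544 over −0.40 to 0.031, of ZNF587 over −0.33 to 0.40 and of ZNF224 over −0.43 to 0.55, and the NONT response of ZNF224 over −1.66 to 0.42.

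Deviations of same-numbered replicates from their group means correlated at −0.051 to 0.037 across genes, so no shared deviation of single genes was seen. Such correlations cannot show whether same-numbered libraries were prepared together. With the replicate block, counts of called members were 189, 167 and 174 for the 3 triptolide responses, 0 and 1 for untreated NUP93-KO and EXOSC5-KO, and 0 and 2 for their differences in response. With 2 libraries per group and about 8 to 14 reads behind the median treated member, differences between genotypes in treated levels of single genes are the least certain values here.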
